A study of Mus musculus with 2 samples.

Results

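Very long genes, whose bodies span 500 kb or more of the genome, were examined for open chromatin along their length in single nuclei of mouse liver. The gene table of GRCm38 held 215 such genes among 20661 protein-coding genes on the autosomes, and they were chosen by length alone, with no measured value. Of these, 110 were 500 to 750 kb long, 50 were 750 to 1000 kb and 55 were longer. Ptprd, a receptor tyrosine phosphatase, was the longest at 2271 kb (chr4:75941237-78211742). The bodies of 5 of them overlap another of the set, namely Gm37013, Gm38666 and Gm38667 on chromosome 18, and Iqschfp and Schip1.

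Nuclei were taken from the nonparenchymal fraction of liver after bead capture of F4/80, a macrophage surface marker, and profiled by droplet ATAC-seq, in which a transposase cuts and tags accessible DNA. The labels give 2 samples from untreated male mice of 8 to 10 weeks, 1 with the genotype Spta wt/wt and 1 homozygous for the sph allele (Spta sph/sph). Spta encodes alpha-spectrin of the red cell membrane skeleton. Nothing in the sources used here links a barcode suffix to a genotype, so values belong to library 1 or library 2, no genotype is compared, and with 1 library each no test was run. Library 1 held 637 cells by the deposited calls and library 2 held 575, with 9303569 and 11906529 autosomal fragments in cells and no cell barcode in common. Per cell, the median share in peaks was 72.15% in library 1 and 53.65% in library 2. Bounds in brackets after a value are 95% intervals, exact Poisson for densities and exact conditional binomial for ratios, and cover counting error only, since the fragments of a cell are not independent.

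Genes of this length are known mostly from the nervous system, where many encode adhesion molecules, ion channels, receptors and synaptic scaffolds, and their length lies almost wholly in introns. Several coincide with common fragile sites, stretches that break under replication stress. In an accessible gene the transposase inserts chiefly at promoters and at enhancers inside introns, while the stretches between them receive few insertions. The body of each gene was therefore split into its ends, the 5 kb inside each boundary, and its interior, the rest. Density is the number of fragments with their midpoint in a stretch, per kb and per 1000000 autosomal fragments of the same cells, and the mean over the autosomes was 0.416.

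Promoter sequences were at hand for 169 of the 215 genes, with 271 annotated starts from RefSeq (GRCm38.p6), of which 118 in 73 genes lay more than 5 kb inside the body. The 7 shown here range from rich to poor in CpG and from open to closed in these nuclei. Each runs from 250 bases before to 50 after the start, 5′ to 3′ along the gene, with every CG in capitals.
Gmds, chr13:32338495-32338794, minus strand: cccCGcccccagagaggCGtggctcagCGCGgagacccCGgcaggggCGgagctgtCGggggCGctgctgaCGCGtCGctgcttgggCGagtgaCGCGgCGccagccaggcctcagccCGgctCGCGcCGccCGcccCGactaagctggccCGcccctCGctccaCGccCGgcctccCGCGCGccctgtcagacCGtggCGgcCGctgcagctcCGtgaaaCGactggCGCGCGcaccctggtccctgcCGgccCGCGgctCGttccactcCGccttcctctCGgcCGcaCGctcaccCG
Ctnna3, chr10:63429848-63430147, plus strand: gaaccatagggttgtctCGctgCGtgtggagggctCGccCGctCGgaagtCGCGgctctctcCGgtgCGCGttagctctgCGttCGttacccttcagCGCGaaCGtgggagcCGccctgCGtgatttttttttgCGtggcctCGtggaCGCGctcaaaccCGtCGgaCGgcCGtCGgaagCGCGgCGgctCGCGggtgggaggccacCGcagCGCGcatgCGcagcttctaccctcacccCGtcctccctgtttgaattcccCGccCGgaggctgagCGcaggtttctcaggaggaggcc
Galnt13, chr2:54436137-54436436, plus strand: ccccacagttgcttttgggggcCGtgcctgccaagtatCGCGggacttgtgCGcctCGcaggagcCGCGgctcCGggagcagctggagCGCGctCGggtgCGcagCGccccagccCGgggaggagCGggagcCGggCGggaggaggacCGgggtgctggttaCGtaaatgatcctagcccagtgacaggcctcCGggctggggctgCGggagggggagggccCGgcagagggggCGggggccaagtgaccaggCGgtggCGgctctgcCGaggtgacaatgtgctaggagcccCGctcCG
Elmo1, chr13:20090257-20090556, plus strand: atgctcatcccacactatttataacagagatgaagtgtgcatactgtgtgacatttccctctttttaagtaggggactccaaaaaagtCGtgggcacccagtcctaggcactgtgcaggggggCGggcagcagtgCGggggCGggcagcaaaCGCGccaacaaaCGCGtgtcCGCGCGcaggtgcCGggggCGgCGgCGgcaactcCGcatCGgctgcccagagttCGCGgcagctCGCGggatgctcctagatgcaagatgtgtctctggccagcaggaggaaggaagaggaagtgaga
Dock2, chr11:34783856-34784155, minus strand: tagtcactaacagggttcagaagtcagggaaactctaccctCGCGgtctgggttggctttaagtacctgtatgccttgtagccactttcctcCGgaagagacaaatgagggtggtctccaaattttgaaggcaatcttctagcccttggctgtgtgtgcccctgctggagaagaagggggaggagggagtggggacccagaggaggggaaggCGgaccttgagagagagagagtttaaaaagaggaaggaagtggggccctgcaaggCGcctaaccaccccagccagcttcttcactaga
Skint5, chr4:113999454-113999753, minus strand: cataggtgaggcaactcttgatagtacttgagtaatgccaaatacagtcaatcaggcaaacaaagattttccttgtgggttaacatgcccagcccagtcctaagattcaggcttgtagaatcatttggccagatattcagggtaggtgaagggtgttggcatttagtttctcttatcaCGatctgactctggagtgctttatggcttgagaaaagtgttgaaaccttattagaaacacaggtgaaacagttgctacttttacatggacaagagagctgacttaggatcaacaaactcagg
Marchf1, inner start, chr8:66386051-66386350, plus strand: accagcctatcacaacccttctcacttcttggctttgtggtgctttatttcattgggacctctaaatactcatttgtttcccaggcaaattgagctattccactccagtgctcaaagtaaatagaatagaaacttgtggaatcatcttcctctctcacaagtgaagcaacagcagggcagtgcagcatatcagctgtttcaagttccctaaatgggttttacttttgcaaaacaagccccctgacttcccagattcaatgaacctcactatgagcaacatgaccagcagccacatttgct
Gmds, an enzyme of GDP-fucose synthesis, has 45 CG in this window, and the density within 1 kb of its start was 20.7 in library 1 and 14.2 in library 2. Ctnna3, an alpha-catenin, has 39 CG and densities of 15.5 and 12.5 at its start. Galnt13, a transferase that begins O-linked glycosylation, has 28 CG, but its start was at 0.215 (4 fragments) and 0.126 (3 fragments). Elmo1, which works with Dock proteins to activate Rac in engulfing and migrating cells, has 21 CG and densities of 9.08 and 4.95. Dock2, a Rac activator of leukocytes, has only 5 CG and was still at 5.69 and 4.70. Skint5, a member of an immunoglobulin family known from skin epithelium, has 1 CG, with 0 fragments in library 1 and 6 in library 2. The 0 fragments allow up to 3, or a density of up to 0.161. The start of Marchf1 that lies 768.3 kb inside its body has 0 CG and densities of 5.53 and 3.32. Marchf1 encodes a ubiquitin ligase that removes MHC class II from the cell surface.

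Strongly open starts were less frequent among these genes than among all protein-coding genes. A density of 10 times the autosomal mean was reached by 36 of the 271 starts in library 1 (13.3%) and by 26 in library 2 (9.59%), against 48.3% and 41.2% of the 20084 annotated starts of all protein-coding genes. Of the 153 starts of long genes at the 5′ end, 18.3% and 14.4% reached it. The starts of all protein-coding genes, here and below, were not split into 5′ and inner ones. Among the 71 starts at the 5′ end with 20 or more CG, the median density was 1.45 in library 1 and 1.22 in library 2. The 7450 starts of all protein-coding genes with as many CG had medians of 11.9 and 8.35. With under 10 CG, the 38 starts at the 5′ end were at 0.134 and 0.294, next to 0.215 and 0.336 for the 8451 such starts of all protein-coding genes. With 10 to 19 CG the 44 starts at the 5′ end were at 0.671 and 0.630, next to 7.63 and 4.70 for all protein-coding genes. The long genes thus lay furthest below in these middle and rich classes.

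Density peaked in a narrow zone around the 5′ end. Over the 169 genes with a known strand, the last kb before the gene had a pooled density of 3.63 in library 1 and 3.08 in library 2, and the first kb inside the 5′ end had a pooled density of 2.43 in library 1 and 1.89 in library 2. The next kb was at 0.612 and 0.602, and the stretch from 50 to 100 kb at 0.151 and 0.2385. The last kb before the 3′ end had 0.187 and 0.244, so no rise marked the 3′ boundary from inside. A few genes carried the pooled peak, since the median gene had only 0.430 and 0.504 in its first kb. In the first kb library 1 was thus the higher in the pooled density only, and the median gene was higher in library 2. From 50 to 100 kb inward library 2 was higher in both measures, with the median gene at 0.0989 and 0.212.

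**Figure D1:**
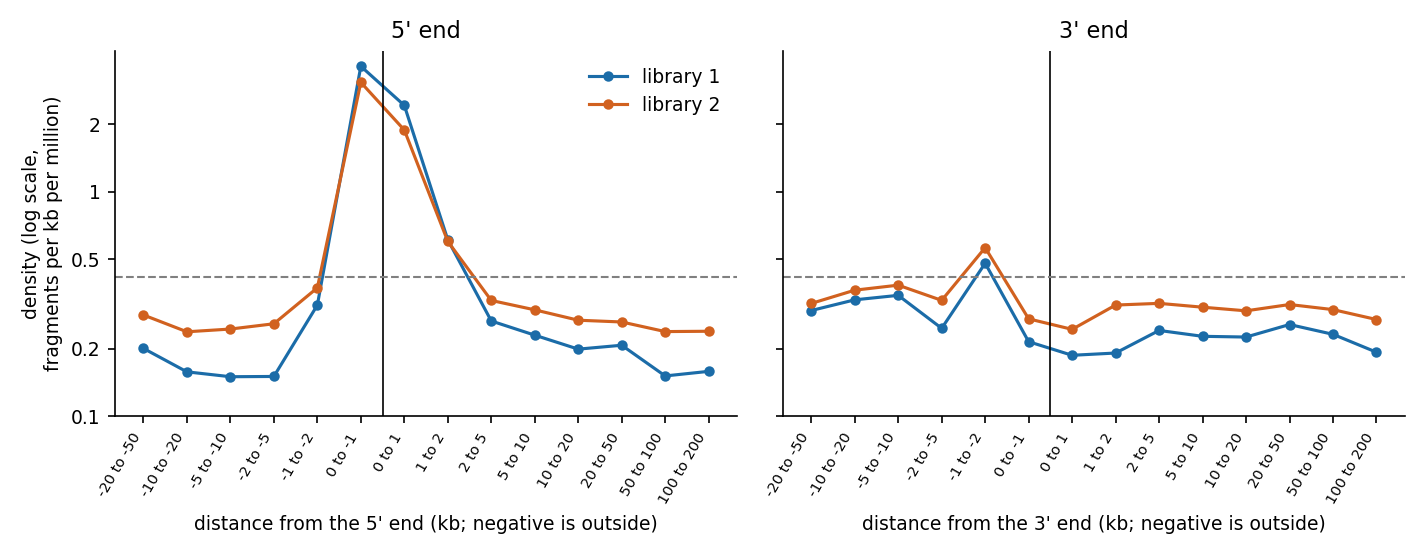
Pooled fragment density (y axis, log scale, scaled fragments per kb) against distance from the 5′ end (left) and the 3′ end (right) of the 169 long genes with a known strand, in kb, negative outside the gene; blue is library 1, orange is library 2, and the dashed line is the autosomal mean of 0.416. The highest values, 3.63 and 3.08, are in the kb just outside the 5′ end, while the kb just outside the 3′ end has 0.215 and 0.272.

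Per gene, the ends together had a median density of 1.76 times the interior in library 1 and 1.41 times in library 2. The ratio reached 14.6 in library 1 and 16.0 in library 2. Zbtb20, a zinc finger repressor known in liver for silencing alpha-fetoprotein, had ends at 10.7 and 16.0 times its interior. Lrba, an anchor protein of vesicle trafficking, was at 13.2 and 7.32, Gmds at 12.4 and 8.50, and Macrod2, an ADP-ribose hydrolase, at 12.8 and 6.625. In Magi2, a membrane scaffold, the fuller end was the 3′ one, at 3.68 and 2.44 against 0.0860 and 0.168 at the 5′ end.

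Interiors of the long genes were sparse, and the more so the longer the gene. In library 1 the pooled interior density was 0.155 (0.155 to 0.156, 259547 fragments), or 0.373 times the autosomal mean, and in library 2 it was 0.248 (0.247 to 0.249, 530955 fragments), or 0.596 times the mean. Genes of 20 to 50 kb had 0.546 and 0.492, and genes of 200 to 500 kb had 0.325 and 0.353. Space at least 5 kb from every gene of the table was at 0.179 in library 1 and 0.2455 in library 2, above the long genes in library 1 and close to them in library 2. Within the set, genes of 500 to 750 kb were at 0.215 and 0.285, those of 750 to 1000 kb at 0.148 and 0.242, and longer ones at 0.106 and 0.219. Across the 215 genes, length and density had a Spearman correlation of -0.31 in library 1 and -0.24 in library 2, given as a description, since all genes share the same cells and depth. Near the length limit, Edil3 (501.8 kb) had 0.145 and 0.179 and Dock1 (503 kb) 0.302 and 0.358. Just under it, Dnm3 (495.9 kb) had 0.276 and 0.319 and Lrrc7 (494.8 kb) 0.0993 and 0.244.

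**Figure D2:**
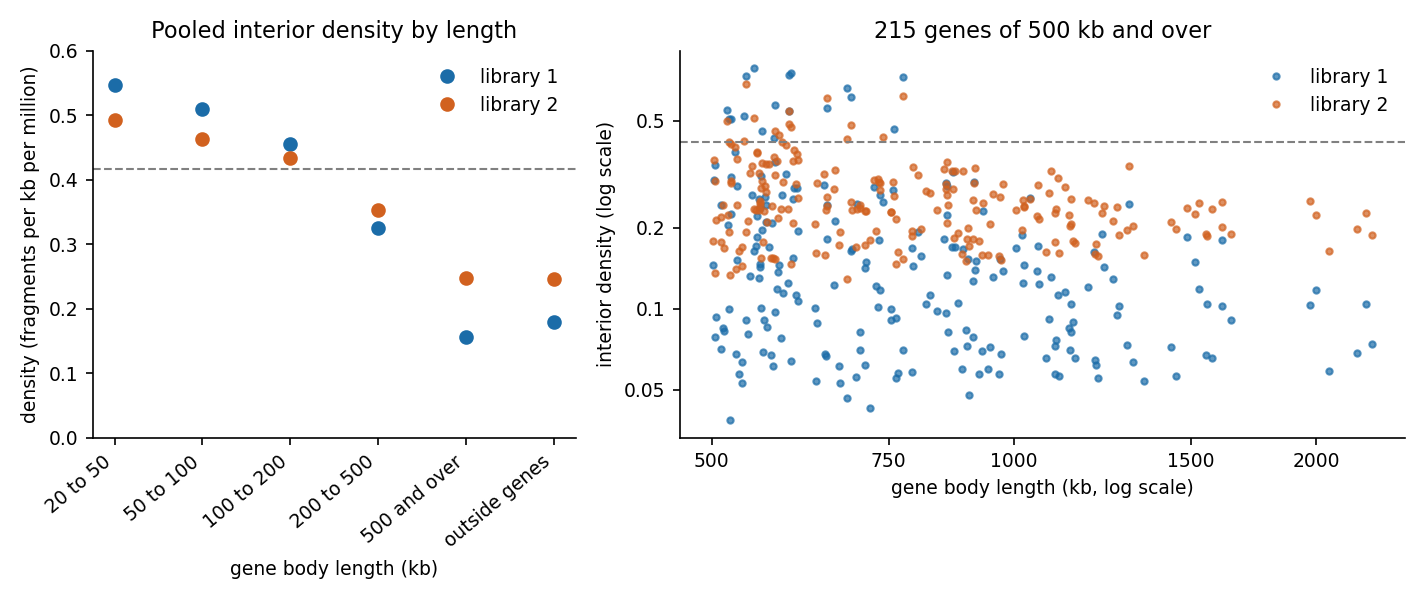
Left, pooled interior density (y axis, scaled fragments per kb) of protein-coding genes by length class and of space outside genes; right, each of the 215 long genes by its length (x axis, kb, log scale) and interior density (y axis, log scale). Blue is library 1, orange is library 2, and the dashed line is the autosomal mean of 0.416. In the pooled densities library 2 lies above library 1 only from 200 kb upward and outside genes, with values of 0.155 and 0.248 for the long genes. The median gene, not drawn, was higher in library 2 in the shorter classes too, with 0.307 and 0.363 at 20 to 50 kb.

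The 215 genes differed from each other by 20.3 times in library 1, from 0.0387 to 0.784, and by 5.32 times in library 2, from 0.129 to 0.686. In library 1 17 genes lay above the autosomal mean and in library 2 15 did. Of the 729 genes of 200 to 500 kb, 197 in library 1 and 214 in library 2 did. Of the 4850 genes of 20 to 50 kb, 1825 and 2033 did. The highest over both libraries included Nfia, a transcription factor of the nuclear factor I family (chr4:97578066-98118876), at 0.732 and 0.686. Arhgap26, a GTPase-activating protein, was at 0.729 and 0.620, and Rad51b, a recombination protein, at 0.784 and 0.513. Lpp, a LIM protein of focal adhesions (chr16:24393350-24992578), had 0.754 and 0.476, and Frmd4a, a polarity scaffold, had 0.741 and 0.487. All 5 lay above the autosomal mean in both libraries. At the low end, Skint5 had 0.0387 and 0.133, Galnt13 0.0467 and 0.129, Iqcm 0.05315 and 0.145, Mdga2, a synaptic adhesion protein, 0.0552 and 0.147, and Unc13c, a factor of synaptic vesicle release, 0.0678 and 0.141. The order of the genes was similar in the libraries, with a Spearman correlation of 0.82 over the 215 genes, a description in which each point is 1 stretch of DNA in both.

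By role, neuronal adhesion and guidance genes were the lowest group in library 1. Their 40 members had a median of 0.0908 in library 1 and 0.2002 in library 2, and with both libraries pooled Csmd3, a large transmembrane protein, was lowest at 0.05545 and 0.158, with Tenm4, a teneurin, highest at 0.2504 and 0.437. The 37 channel, receptor and synapse genes had medians of 0.0965 and 0.232, and Ank2, which anchors channels to the spectrin skeleton, was highest with both libraries pooled, at 0.353 and 0.313. For the 12 large fragile-site genes the medians were 0.115 and 0.241, and with both libraries pooled Wwox, an oxidoreductase regarded as a tumour suppressor, was highest at 0.296 and 0.295 and Naaladl2 lowest at 0.0541 and 0.159. The 16 genes for matrix, enzymes and transport had medians of 0.115 and 0.239, and Slc9a9, an endosomal sodium-proton exchanger, was highest in the pooled libraries, at 0.459 and 0.350.

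Medians in library 1 were higher in the groups of general cell functions, whose highest and lowest members are also named by the density in both libraries pooled, so that another gene may be the extreme in a single library. The 21 cytoskeleton, GTPase and trafficking genes had medians of 0.245 and 0.261, with Arhgap26 highest and Sorcs3, a sorting receptor, lowest at 0.0640 and 0.147. The 10 cadherin, catenin and junction genes were at 0.176 and 0.245, from Cdh18 (0.0700 and 0.159) to Lpp. The 20 transcription and chromatin factors were at 0.1705 and 0.278, from Zfp804b (0.0612 and 0.155) to Nfia. The 18 phosphatases, kinases and phosphodiesterases were at 0.163 and 0.248, from Erbb4, a neuregulin receptor (0.0656 and 0.163), to Ptprm, an adhesive receptor phosphatase (0.612 and 0.481). The other 45 genes, in no list, had medians of 0.147 and 0.243. Over all 215 the medians were 0.124 and 0.2365. A gene may stand in more than 1 list, which holds for 4 of the 215.

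Between the libraries, most long genes were denser in library 2. Interior density was 1.5-fold or more higher in library 2 in 149 of the 215 genes, against 26.2% of the 9010 protein-coding genes compared by the same rule, and 1.5-fold or more lower in 5, against 11.9% of those genes. The median log2 ratio of library 2 over library 1 was 0.96 for the long genes and 0.08 for all genes compared. Scaling by fragments outside genes, which shifts every log2 ratio by -0.46, left 98 higher and 18 lower. Scaling by fragments near transcription start sites shifts it by 0.34 and gave 175 higher and 0 lower. Such a shift moves the share of all genes too, and that share was not counted under either scaling. Pooled, interiors were 1.60 times as dense in library 2 as in library 1 and space outside genes 1.37 times. The ends of the long genes, pooled, were 0.984 times as dense, at 0.4985 and 0.491. Per gene, however, the log2 ratio of the ends had a median of 0.42, with quartiles of -0.27 and 1.10, so the ends of the median gene were also denser in library 2.

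The 4 highest ratios were in genes known from synapses and cell contacts. Cntnap5b, a neurexin-like adhesion protein (chr1:99772246-100490599), had 0.0429 in library 1 and 0.180 in library 2, a log2 ratio of 2.065 (1.88 to 2.26). Gabrg3, a subunit of the GABA-A receptor, had 0.0530 and 0.194 (log2 ratio 1.87, 1.70 to 2.05). Cntnap5a had 0.0478 and 0.171 (1.84), and Ctnna3 0.0656 and 0.235 (1.84). All 4 were among the emptier genes of library 1. Density in library 1 is the denominator of the ratio, so a low value there raises the ratio in part by construction. The 5 genes on the lower side were dense in library 1. Zbtb20 had 0.465 and 0.264 (-0.82, -0.90 to -0.74), Lpp -0.66, Zfhx3, a homeobox factor, 0.664 and 0.429 (-0.63), Rad51b -0.61 and Frmd4a -0.61. Of the longest genes, Ptprd had 0.0739 and 0.188, Cntnap2 0.104 and 0.2265, Lsamp 0.0685 and 0.198, Lrp1b 0.0589 and 0.164, and Macrod2 0.117 and 0.2225. All 5 were thus higher in library 2, with log2 ratios of 0.93 to 1.53.

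**Figure D3:**
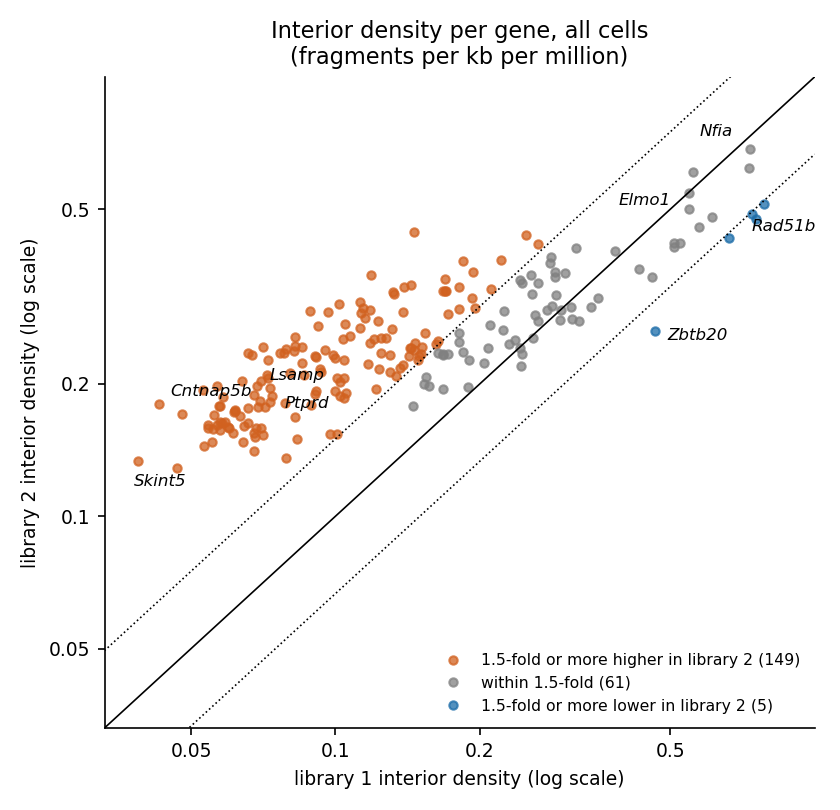
Interior density of each of the 215 long genes in all cells of library 1 (x axis, log scale) and library 2 (y axis, log scale), in scaled fragments per kb, with equality as a solid line and 1.5-fold as dotted lines. The 149 genes in orange are at least 1.5-fold higher in library 2 and crowd at low density, while the 5 genes in blue are at least 1.5-fold lower and lie at high density.

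Counts by role followed the same split. Of all 215 long genes 69.3% were higher and 2.33% lower, against 26.2% and 11.9% of all genes compared. Of the neuronal adhesion and guidance genes 38 of 40 were higher in library 2 and 0 lower, and of the channel, receptor and synapse genes 33 of 37 and 0. Higher were 11 of 16 genes for matrix, enzymes and transport, 7 of 12 fragile-site genes and 10 of 18 phosphatases, kinases and phosphodiesterases, with 0 lower in each. Of the transcription and chromatin factors 12 of 20 were higher and 2 lower, and of the cadherin group 4 of 10 and 1. Cytoskeleton, GTPase and trafficking genes had the smallest share, with 8 of 21 higher and 1 lower.

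The makeup of cells differed between the libraries, so the comparison was repeated within cell classes, named from marker genes after clustering without any stretch that touches a long gene. Kupffer-like cells, the resident macrophages of liver, numbered 294 and 240, endothelial-like cells 120 and 122, stellate-like cells 67 and 25, monocyte-like cells 56 and 85, hepatocyte-like cells 25 and 1, and 75 and 102 cells stayed unnamed. Of 15 Kupffer markers 14 were in the gene table used, and all 14 were found in 10% or more of the cells of each Kupffer-like cluster. Kupffer-like cells of library 1 lay in clusters 3 (204 cells) and 7 (90 cells), with 1 cell of library 2 in each, and the other 238 of library 2 in cluster 2. Clusters 2, led by Akr1c20 and Cyp2b23, and 7, led by Cacng1, had no Kupffer marker among their 10 leading genes. The Kupffer score, a mean log2 ratio of marker fragments in a cluster over all other cells, was 0.444 in cluster 2. It was 1.30 in cluster 3 and 1.065 in cluster 7. The Kupffer-like comparison between the libraries thus sets a weakly marked cluster 2 mostly against the more strongly marked clusters 3 and 7. Endothelial-like cells of both libraries shared cluster 1 and monocyte-like cells cluster 5, where Rag1 was a leading gene and dendritic markers scored next to those of monocytes. No monocyte marker was among the 10 leading genes of cluster 5. In a finer clustering (Leiden resolution 1) the endothelial-like cluster held 97 cells of library 1 and 7 of library 2. There, an unnamed cluster with endothelial markers as its best score held 22 and 115. None of the markers is a long gene. A doublet score marked 9 and 6 cells, which were kept.

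Within classes library 2 again had more fragments in the long genes. Among Kupffer-like cells 152 of 215 were 1.5-fold higher in library 2 (all genes 25%) and 8 lower (all genes 23.7%), with a median log2 ratio of 1.24 against -0.11 for all genes. With scaling by fragments outside genes, a shift of -0.47, the counts were 123 and 28, and the share of all genes was not counted for it. Among endothelial-like cells 117 were higher (all genes 23.8%) and 6 lower (all genes 25.2%), with medians of 0.66 and -0.13. Among monocyte-like cells 104 of 214 were higher (all genes 17.3%) and 0 lower (all genes 8.51%), with medians of 0.56 and 0.00. Of the 214 genes compared in all of these 3 classes, 63 were higher in each (all genes 5.62%) and 39 in none (all genes 61.6%). Pooled interior densities were 0.137 and 0.239 in Kupffer-like cells, 0.155 and 0.222 in endothelial-like cells, 0.117 and 0.156 in monocyte-like cells, 0.205 and 0.2415 in stellate-like cells, and 0.276 and 0.321 in unnamed cells.

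Cells with fewer of their fragments in peaks had denser long-gene interiors in both libraries. Below 30% in peaks the pooled density was 0.376 in library 1 (12 cells) and 0.339 in library 2 (72 cells). From 30 to 50% it was 0.241 (45 cells) and 0.273 (165 cells), from 50 to 70% 0.171 (200 cells) and 0.197 (282 cells), and at 70% and over 0.133 (380 cells) and 0.134 (56 cells). Cells under 50% had 1.87 times (1.85 to 1.90) the density of cells at 50% or more in library 1 and 1.64 times (1.63 to 1.65) in library 2. Both measures come from the same fragments, so this is a description. How many of the fragments in long interiors lie outside peaks was not counted. Space outside genes moved the same way, from 0.344 and 0.311 below 30% to 0.165 and 0.1715 at 70% and over. Genes of 20 to 50 kb went the other way in library 1, from 0.395 to 0.556, and stood at 0.498 and 0.511 in library 2.

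**Figure D4:**
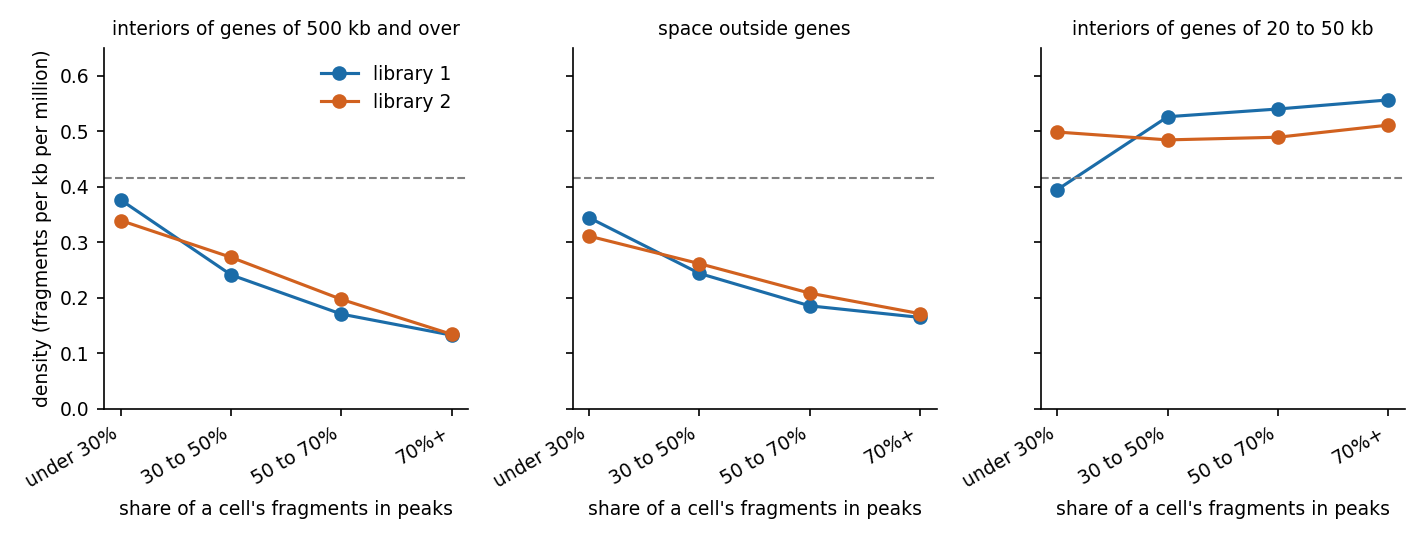
Pooled density (y axis, scaled fragments per kb) in the interiors of the long genes, outside genes and in genes of 20 to 50 kb, for cells grouped by the share of their fragments in peaks (x axis); blue is library 1, orange is library 2, and the dashed line is the autosomal mean of 0.416. In the long genes both lines fall from above 0.33 to about 0.13 and meet at 70% and over, at 0.133 and 0.134.

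Within ranges of the share in peaks, chosen after seeing the data, fewer long genes were past 1.5-fold. In cells with 50 to 70% in peaks 57 were higher in library 2 (all genes 11.0%) and 2 lower (all genes 16.4%), with a median log2 ratio of 0.31. In cells with 70% or more, 62 were higher (all genes 10.3%) and 19 lower (all genes 24.7%), with a median of 0.14. In Kupffer-like cells 115 were higher (all genes 17.0%) and 11 lower (all genes 26.9%) from 50 to 70%, and 94 higher (all genes 13%) and 16 lower (all genes 27.8%) at 70% or more. The ranges did not match the share fully, since the median in peaks from 50 to 70% was 64.9% in library 1 and 59.8% in library 2, and 75.3% and 73.1% at 70% or more. Among Kupffer-like cells these medians were 66.7% and 59.97%, and 75.5% and 72.4%. At 70% or more the median density per Kupffer-like cell was 0.132 in 240 cells of library 1 and 0.149 in 29 cells of library 2. Among single genes, Zbtb20 kept a log2 ratio of -0.74 at 50 to 70%, Cntnap5b 1.94 and Lsamp 0.86, while Ptprd moved from 1.35 to 0.43. Whether the share in peaks accounts for the difference between the libraries was not tested.

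Some long genes differed in density between cell classes. Kupffer-like cells were compared with endothelial-like cells inside each library. In library 1 40 long genes were 1.5-fold higher in Kupffer-like cells (all genes 35.3%) and 90 lower (all genes 24.7%). In library 2 54 were higher (all genes 36.6%) and 30 lower (all genes 23.8%), or 42 and 36 with scaling outside genes, a shift of -0.12, and 83 and 20 with scaling near start sites, a shift of 0.16. With pile-ups masked the counts in library 2 were 38 and 19. For these scalings and for masking the share of all genes was not counted. Median log2 ratios were -0.43 and 0.25, against 0.17 and 0.22 for all genes. In both libraries 22 genes were higher (all genes 22.6%) and 20 lower (all genes 13.8%), and 12 went opposite ways (all genes 4.64%).

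The 5 genes with the highest ratio of Kupffer-like over endothelial-like cells, both libraries summed, were Elmo1, Dock2, Slit3, Dlgap2 and Marchf1. Elmo1 (chr13:20090507-20608353) had 0.703 and 0.638 in Kupffer-like cells of libraries 1 and 2, 0.784 and 0.642 in monocyte-like cells, and 0.126 and 0.221 in endothelial-like cells. The log2 ratio of Kupffer-like over endothelial-like was 2.47 (2.18 to 2.795) and 1.53 (1.32 to 1.75). Dock2 (chr11:34226815-34783905) had 0.332 and 0.353 in Kupffer-like cells, 0.365 and 0.403 in monocyte-like cells and 0.0667 and 0.120 in endothelial-like cells. Marchf1 (chr8:65618009-66472841) had 0.360 and 0.293 against 0.0913 and 0.134. These 3 were denser than in endothelial-like cells in both myeloid classes of both libraries. Slit3, a secreted guidance cue, had 0.310 and 0.644 in Kupffer-like cells but 0.0923 and 0.159 in monocyte-like cells, and Dlgap2, a synaptic scaffold, had 0.307 and 0.419 against 0.0837 and 0.111. With pile-ups masked, Slit3 in Kupffer-like cells of library 2 was at 0.326.

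The genes dense in endothelial-like cells include Hpse2, a heparanase-like protein that binds heparan sulfate (chr19:42786541-43388476). It had 0.371 and 0.328 in endothelial-like cells against 0.0753 and 0.0960 in Kupffer-like cells, a log2 ratio of -2.30 (-2.55 to -2.05) and -1.77 (-2.02 to -1.53), and -1.78 in library 2 with pile-ups masked. Auts2, a chromatin regulator, had 0.2105 and 0.527 against 0.0487 and 0.213, and Egfem1 0.238 and 0.641 against 0.0431 and 0.135. Other values of library 2 changed once pile-ups, described further on, were masked. Hs6st3, a heparan sulfate sulfotransferase, had 0.123 and 0.793 in endothelial-like cells, but 0.151 in library 2 once pile-ups were masked, and its log2 ratio there went from -2.31 to 0.10. Tafa1, a secreted chemokine-like protein, was at 0.0645 and 0.439 in endothelial-like cells and at 0.173 in library 2 after masking. For Egfem1 the ratio in library 2 went from -2.24 to -0.83.

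**Figure D5:**
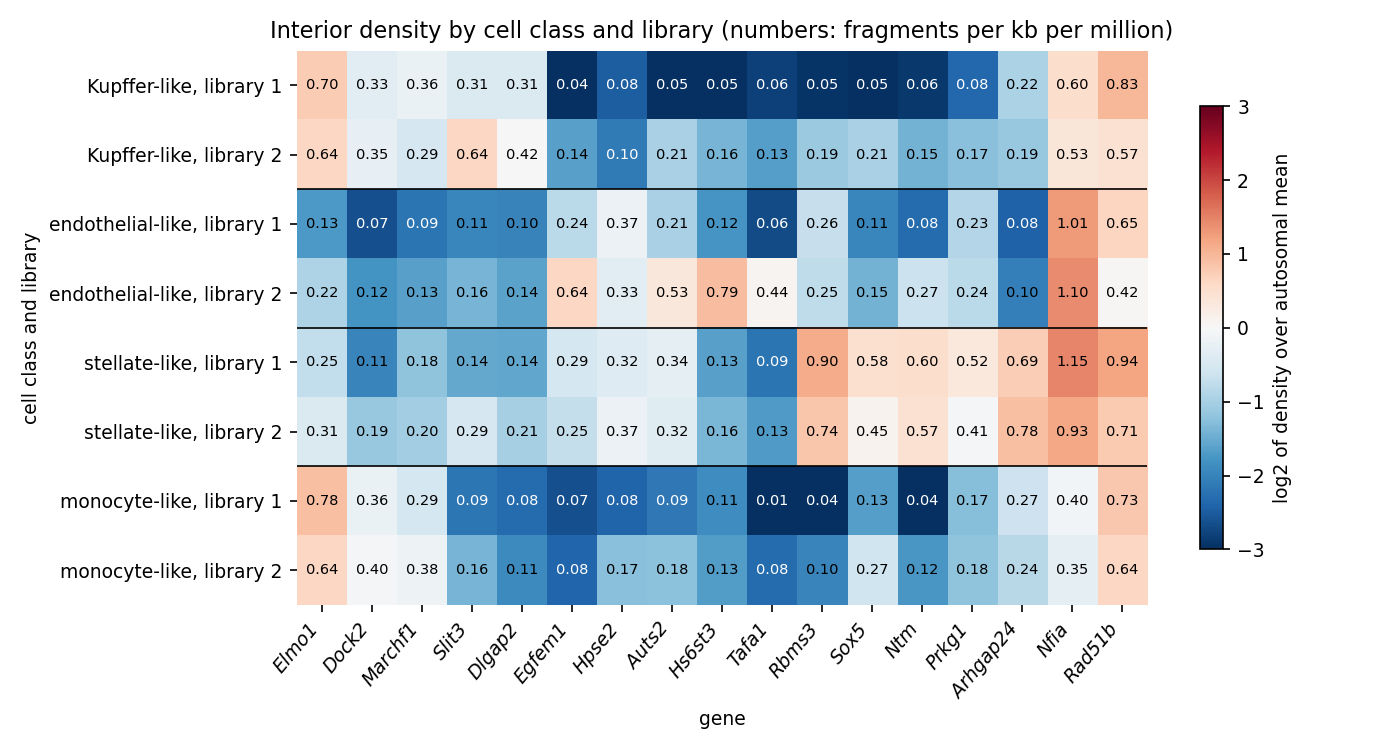
Interior density of 17 long genes (columns) in Kupffer-like, endothelial-like, stellate-like and monocyte-like cells of each library (rows), with the value in scaled fragments per kb printed in each cell and the colour giving its log2 over the autosomal mean of 0.416. Elmo1 lies above that mean in the Kupffer-like and monocyte-like rows, while Dock2 lies below it there but above its own endothelial-like values. Rbms3 and Ntm lie above the mean in the stellate-like rows. Nfia is dense in all rows but the monocyte-like ones, where it is at 0.396 and 0.3455.

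Stellate-like cells, the pericytes of liver, were compared in the same way. Against Kupffer-like and endothelial-like cells together, 102 of the 215 were 1.5-fold higher in library 1 (all genes 22.7%) and 28 lower (all genes 40.1%), and in library 2, with 25 stellate-like cells, 34 were higher (all genes 20%) and 65 lower (all genes 36.6%). In both libraries 27 were higher (all genes 11.5%) and 13 lower (all genes 21.6%), so the share higher was near that of all genes. Genes of this group named here were chosen after their values were seen. Rbms3, an RNA-binding protein (chr9:116572746-117629913), had 0.896 and 0.739 in stellate-like cells, 0.0542 and 0.192 in Kupffer-like cells and 0.258 and 0.245 in endothelial-like cells. Ntm, a neural adhesion protein, had 0.597 and 0.567, against 0.0555 and 0.155 in Kupffer-like and 0.0834 and 0.2655 in endothelial-like cells. Sox5, a transcription factor, had 0.579 and 0.4465, against 0.04765 and 0.212 in Kupffer-like and 0.108 and 0.155 in endothelial-like cells. Prkg1, a cGMP-dependent kinase of contractile cells, had 0.517 and 0.409, against 0.0807 and 0.174 in Kupffer-like and 0.227 and 0.239 in endothelial-like cells. Arhgap24, a Rac GTPase-activating protein, had 0.689 and 0.783, against 0.216 and 0.190 in Kupffer-like and 0.0771 and 0.1003 in endothelial-like cells. In these 5 genes the stellate-like value was the highest of the 3 classes in both libraries. In library 2 with pile-ups masked, the stellate-like values of these 5 ran from 0.3915 for Prkg1 to 0.801 for Rbms3.

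The other classes gave fewer examples. In the 25 hepatocyte-like cells of library 1 Zbtb20 reached 1.15, the highest interior density of any long gene in that class, and Ptprd stood at 0.270, against 0.0457 in Kupffer-like and 0.0716 in endothelial-like cells of the same library. Wwox had 0.630 in endothelial-like and 0.550 in stellate-like cells of library 1, against 0.1865 in Kupffer-like cells. In library 2 the endothelial-like and Kupffer-like values of Wwox were 0.280 and 0.272, and 0.319 and 0.1715 with pile-ups masked. Ptprm was denser in Kupffer-like cells (0.782 and 0.617) than in monocyte-like cells (0.132 and 0.161) of both libraries.

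Inside the interiors, the fragments fell into a few open stretches and a broad low floor. An open stretch was a 1 kb tile with 10 or more times the autosomal mean in either library, a choice that uses the measured values, so what follows is a description. Of 179631 tiles 609 were open, in 117 genes, and 98 genes had none. Tiles of shorter genes and outside genes were not counted, so these numbers cannot be called particular to long genes. Open tiles numbered 591 by the values of library 1, 251 by those of library 2 and 233 by both. Zfhx3 held 28 and Rad51b 27, while Skint5, Galnt13, Ptprd, Lsamp and Lrp1b had 0. Density in the open tiles was 8.21 in library 1 and 4.56 in library 2, and in all other tiles 0.128 and 0.233. Since most open tiles passed by the values of library 1, the direction between the libraries there follows from how they were chosen. Tiles with no fragment at all made up 47.5% in library 1 and 17.7% in library 2.

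Some open tiles, picked for their difference between classes, are given as examples, and exons could not be told from introns without an exon annotation. Of Elmo1, the tile at chr13:20207507-20208506, 117 kb from the nearer end, had 24.2 and 14.2 in Kupffer-like cells against 0.689 and 0.552 in endothelial-like cells. Marchf1 had a tile at chr8:66438009-66439008 with 38.2 and 18.5 against 4.82 and 5.52. Hpse2 at chr19:42988541-42989540 had the reverse, 0.937 and 0.254 in Kupffer-like cells against 49.6 and 32.02 in endothelial-like cells. In Wwox the tile at chr8:115089635-115090634 had 1.69 and 0.254 against 77.8 and 31.5. Egfem1 at chr3:29538653-29539652 had 0.187 and 0.507 against 26.9 and 25.4, so this tile stood apart in both libraries although the whole interior of Egfem1 changed with masking. By contrast, Nfia at chr4:97772066-97773065 was open in both, at 34.7 and 35.0 against 46.8 and 46.4.

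Pile-ups were frequent in library 2. A pile-up is a 20 kb stretch with 10 or more fragments of a single cell that also exceed 10-fold the number predicted from the rest of its cluster at equal depth. They held 1.41% of the long-gene interior fragments in library 1 and 20.5% in library 2, against 0.6705% and 12.0% of all autosomal fragments. In library 1 114 of the 215 genes held a pile-up and in library 2 all 215 did. A longer body holds more 20 kb stretches, and the share of shorter genes with a pile-up was not counted. The single cell with most fragments of a gene gave a median of 4.22% of that gene's fragments in library 1 and 8.70% in library 2. In Hs6st3 it gave 28.25% of library 2, 739 fragments, in Erc2, a presynaptic scaffold, 23.2%, in Ptprn2 21.5% and in Egfem1 21.3%, and in Skint5 24.5% of library 1. With pile-ups masked the pooled density was 0.154 and 0.224, a ratio of 1.46 in place of 1.60, and 131 genes were 1.5-fold higher and 2 lower. The masked log2 ratio had a median of 0.80 for the long genes, 0.25 for genes of 200 to 500 kb and 0.07 for genes of 20 to 50 kb. The library 2 cell with 572237 fragments, 17.3% of them in peaks, gave 6.70% of the long-gene interior fragments of its library. Without that cell 141 genes were higher and 3 lower. The share of all genes was not counted with masking or without that cell.

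Fragments in the interiors were also longer than over the autosomes as a whole. Their median length was 148 bp in library 1 and 117 bp in library 2, against 101 and 94 bp over the autosomes. It was 103 and 100 bp at the ends of the long genes. Space outside genes was also above the autosomes, at 128 and 110 bp. Fragments under 120 bp made up 44.4% and 50.6% of the interior fragments. Each interior fragment was seen in a mean of 5.67 read pairs in library 1 and 9.42 in library 2, close to 5.4 and 9.05 over the autosomes.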

How the data were processed

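Single-nucleus ATAC-seq was done on 2 samples, 1 per genotype. The authors deposited a fragment file with the count of read pairs per fragment and a table of counts per barcode, in which the barcode suffix names the library. The submitters' processing notes name Cell Ranger ATAC 1.2.0, R 3.6.1, Signac 0.2.4 and GRCm38.p5. Cells are the barcodes that the deposited table calls cells. Both libraries stand in 1 file, and no step recorded in the sources used here shows whether they were scaled.

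Genes came from the RefSeq table of GRCm38.p6. Each fragment was counted once, at its midpoint, with no shift added. Cells were clustered on 5 kb bins that touch no long gene (TF-IDF, 30 components, the first left out, 20 neighbours, Leiden resolution 0.5), and clusters were named from marker lists. A gene was counted as higher or lower at 1.5-fold with 50 or more fragments in the comparison, and log2 ratios had a pseudocount of 0.5. The background was all autosomal protein-coding genes with an interior of 10 kb or more. Fragments per cell had medians of 13220 and 13186. With 1 library per group no p-value was computed. The counting was tested on simulated data. Tools were Python 3.11.15, numpy 2.4.6, scipy 1.17.1, pandas 2.3.3, scikit-learn 1.9.0, igraph 0.11.9, leidenalg 0.10.2, scanpy 1.11.5 and matplotlib 3.10.9.

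Genes were named by rule: the 5 longest, the 5 highest and lowest by density, by library ratio and by Kupffer-like over endothelial-like ratio, the 5 with the highest ratio of fuller end to interior, the extremes of each role list, the 5 with the largest share from 1 cell, and those next to the length limit. A gene that the rule names is not reported here. The printed promoters, the stellate-like genes, single open tiles and the other genes outside this rule were chosen after their values were seen. The members and lists were chosen with earlier results of these data known. Alternatives by 50 to 70% and 70% or more in peaks, scaling by fragments outside genes, and leaving out the cell with most fragments were added after seeing the data.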

Additional observations from a re-analysis of the deposited data

Results flagged for a closer look

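Barcodes not called cells also had fragments in the long genes, at a density of 0.253 in library 1 and 0.355 in library 2, which is above the values in cells of 0.155 and 0.248. These barcodes are outside the comparisons of the report, and their density outside genes was 0.246 and 0.329. Of the genes named by the rule, Ptprd, Zfp804b and Erc2 stood out because their Kupffer-like over endothelial-like log2 ratio had opposite signs in the libraries. The ratio of library 2 minus that of library 1 was 1.46 for Ptprd, 1.40 for Zfp804b and 1.60 for Erc2, and the difference was not tested. With pile-ups masked the ratios in libraries 1 and 2 were -0.65 and 0.79 for Ptprd, -0.41 and 0.66 for Zfp804b, and -0.49 and 0.39 for Erc2.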

How the results depend on the processing

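No paired analysis was possible because each genotype has 1 sample and no library is tied to one. Interior density over the autosomal mean was 0.373 in library 1. It was 0.371 with the stricter cell filter and with 10 kb ends, 0.356 without the ends of other genes, 0.370 with pile-ups masked and 0.292 with a 750 kb limit. In library 2 it went from 0.596 to 0.584 without the ends of other genes, 0.539 masked, 0.547 at 750 kb and 0.584 without the cell with most fragments. End over interior was 1.58 and 1.25 with 10 kb ends. Between the libraries, the genes lower in library 2 numbered 2 with masking and with 50% or more in peaks, 0 when scaled near start sites and 3 without the top cell. Higher and lower were 57 and 2 at 50 to 70% in peaks, 62 and 19 at 70% or more, and 98 and 18 when scaled outside genes. Shares of all genes were counted only in the main setting, at 50 to 70% and at 70% or more in peaks. In Kupffer-like cells the lower count was 5 without the ends of other genes and with masking, 0 scaled near start sites and 28 outside genes, and at 70% or more in peaks 94 were higher and 16 lower. Kupffer-like over endothelial-like in library 2 gave 19 lower with masking and 83 higher scaled near start sites. The ratio of cells under 50% in peaks to the rest was 1.93 and 1.67 without the ends of other genes, 2.22 and 1.77 at 750 kb, and in library 2 1.65 masked and 1.62 without the top cell. Pile-ups held 1.71% and 21.4% at 750 kb and 21.5% in library 2 without the top cell. The cause was not tested. Resolution 1, which left 7 endothelial-like cells in library 2, and 70% or more in peaks gave no value for the contrast of classes there.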
